A study of Mus musculus with 12 samples.

Results

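Hyaluronan is a long sugar polymer of the extracellular matrix, and the genes described here make it, bind it or cut it. They were chosen by name, as every non-control probe on the array whose gene name was Has1, Has2, Has3, Cd44, Tnfaip6, Ptx3, Vcan, Hyal1 or Hyal2. All 9 genes were found, with 16 of the 56605 probes and 9 of the 27248 gene symbols on the array. RNA came from the cecum of C57BL/6 mice, the strain named in the study's methods, and was hybridised to 1-colour Agilent arrays, on which the brightness of a spot measures the amount of a transcript. There were 12 arrays in 4 groups of 3, which the study calls biological triplicates. In the sham group the cecum was not cauterized and, according to the methods, tissue was taken at 0 h from the sham operation, while the protocol in the labels can also be read as sham tissue taken at later times. The other groups had the cecum cauterized with bipolar forceps, which starts a peritoneal adhesion, and were sampled 3, 12 or 72 h later. If sham was taken at 0 h, the time since anesthesia and laparotomy differed from every other group together with the cautery, and these cannot be told apart. The age of the mice is not given in the sources used here.

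All labels call the mice male, but Xist, which is transcribed from the inactive X chromosome, had a signal well above background on 12 of 12 arrays. The Y-linked Ddx3y and Eif2s3y were well above background on 0 arrays, Uty on 1 and Kdm5d on 12. The sex given in the labels was therefore not borne out by the arrays, and it was the same in every group. The arrays lay on 2 slides. The first held the sham arrays, the 3 h arrays and replicates 1 and 2 of 12 h, and the second held replicate 3 of 12 h and the 72 h arrays, so that 3 h against sham was measured within 1 slide and 72 h can be separated from the slide only through 1 array. The share of probes well above background ran from 60.2% to 65.2% by array, with 0 saturated spots.

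As background, hyaluronan is made at the plasma membrane by the hyaluronan synthases Has1, Has2 and Has3, which extrude the growing chain from the cell. Cd44 is its main cell surface receptor. Tnfaip6, also called TSG-6, transfers protein chains of inter-alpha-inhibitor onto hyaluronan, Ptx3 is a pentraxin of innate immunity that takes part in this cross-linked matrix, and Vcan is versican, a large chondroitin sulfate proteoglycan that holds hyaluronan through its link modules. Hyal1 and Hyal2 are hyaluronidases that degrade the chain, Hyal1 in lysosomes and Hyal2 at the cell surface. The mesothelial cells that line the cecum carry a hyaluronan coat.

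The array reads Cd44 and Vcan at several places along the transcript, and the results below differ between those places, so 3 of the probe sequences are shown as the scanner output gives them, 5′ to 3′, with mm9 positions on the minus strand. The first Cd44 probe lies at chr2:102677971-102678030 in a variably spliced exon of the stalk of the receptor, and the array design does not pair it with all of the Cd44 transcripts that it pairs with the other probes. The second lies 23693 bases downstream at chr2:102654278-102654337 and covers the end of the coding region, with the stop codon in capitals. The Vcan probe lies at chr13:89851810-89851869 in the coding region of a link module, the fold that binds hyaluronan. These names for the parts of the transcript rest on general knowledge of the genes and on the transcripts the array design lists, and were not checked against an mm9 annotation.
Cd44, variable exon: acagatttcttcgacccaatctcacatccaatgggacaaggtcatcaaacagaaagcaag
Cd44, end of coding region: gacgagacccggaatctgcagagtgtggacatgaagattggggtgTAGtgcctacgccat
Vcan, link module: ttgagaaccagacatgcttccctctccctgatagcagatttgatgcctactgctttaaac

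Tnfaip6, Ptx3 and Has1 were the members with the highest changes at 3 h, and their promoters are shown for this reason. In the table of RefSeq promoters used here, on build GRCm38.p6, 7 of the 9 members were matched, all but Has2 and Has3. The 250 bases before the annotated start are printed on the strand of the gene, at chr2:52037863-52038112 (plus) for Tnfaip6, chr3:66219637-66219886 (plus) for Ptx3 and chr17:17855189-17855438 (minus) for Has1. Capitals mark matches, on either strand, to any of 6 motifs, namely the TATA box (TATAAA), NF-kB (GGANNTTCC), AP-1 (TGANTCA), CRE (TGACGTCA), STAT (TTCNNNGAA) and C/EBP (TTGCNNAAT).
Tnfaip6: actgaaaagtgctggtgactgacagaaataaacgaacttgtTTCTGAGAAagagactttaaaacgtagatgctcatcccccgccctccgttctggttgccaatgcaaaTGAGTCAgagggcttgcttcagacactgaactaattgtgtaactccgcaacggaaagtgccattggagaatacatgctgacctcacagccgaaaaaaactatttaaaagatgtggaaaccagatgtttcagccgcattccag
Ptx3: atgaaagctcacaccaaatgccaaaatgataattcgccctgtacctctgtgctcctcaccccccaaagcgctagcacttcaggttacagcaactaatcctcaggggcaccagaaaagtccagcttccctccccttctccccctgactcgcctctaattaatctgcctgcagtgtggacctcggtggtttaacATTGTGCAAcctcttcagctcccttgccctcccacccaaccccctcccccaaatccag
Has1: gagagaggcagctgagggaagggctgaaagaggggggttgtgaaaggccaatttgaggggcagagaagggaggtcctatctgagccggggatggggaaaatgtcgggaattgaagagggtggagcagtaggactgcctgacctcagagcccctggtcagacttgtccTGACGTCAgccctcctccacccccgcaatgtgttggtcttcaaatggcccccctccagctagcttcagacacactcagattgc
The Tnfaip6 promoter held a STAT match whose first base was at -209 and an AP-1 match at -142, the Ptx3 promoter a C/EBP match at -58, and the Has1 promoter a CRE match at -83. No matches overlapped. The motifs were found in 8.3% (STAT), 7.81% (AP-1), 2.4% (C/EBP), 1.79% (CRE), 4.26% (NF-kB) and 13.6% (TATA box) of the 32851 promoters of this length, counted over 300 bases that reach 50 bases past the start. The promoters of Cd44, Vcan, Hyal1 and Hyal2 held none of these letters in that window. A match describes the letters and not a bound factor.

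Levels are on a log2 scale relative to the 75th percentile intensity of the same array, so that a level of 0 is as bright as that percentile, and a difference of 1 is a 2-fold change. Levels of different probes were not compared with each other, since probes differ in brightness for the same amount of RNA. A gene was represented by its brightest probe over the 12 arrays unless another is named. Differences were tested with limma in 1 fit of the 12 arrays, p-values were adjusted by Benjamini-Hochberg across 56605 probes, and a gene was called where it changed more than 2-fold with an adjusted p below 0.05. As an alternative, normexp background correction was run, with an offset of 50 added to each intensity. The 75th percentile intensity was 179.5 to 260.8 by array, so this offset by itself shrinks the changes of dim probes. A smaller change of a dim probe with normexp therefore does not show whether the change is real. In bulk tissue, fewer cells of a type and less RNA per cell cannot be told apart.

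Of the 9 members, 5 rose at 3 h, namely Has1, Has2, Cd44, Tnfaip6 and Ptx3. At 12 h and at 72 h, 6 rose, the same genes and Vcan. No member fell through its brightest probe. Among all 27248 genes, the share called higher was 3.81% at the first time, 4.79% at the next and 5.56% at the last, and the share called lower was 4.27%, 5.57% and 4.38%. Between times, 1 member rose from 3 h to 12 h (2.16% of all genes did), 1 from 12 h to 72 h (5.41%) and 2 from 3 h to 72 h (7.51%). The median log2 change of the members was 1.52, 1.86 and 3.04 in order of time, beside 0.07, -0.01 and -0.13 over all genes. By the F-test across the 4 groups, 7 of the 9 members differed, all except Has3 and Hyal2, against 44.2% of all genes.

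**Figure D1:**
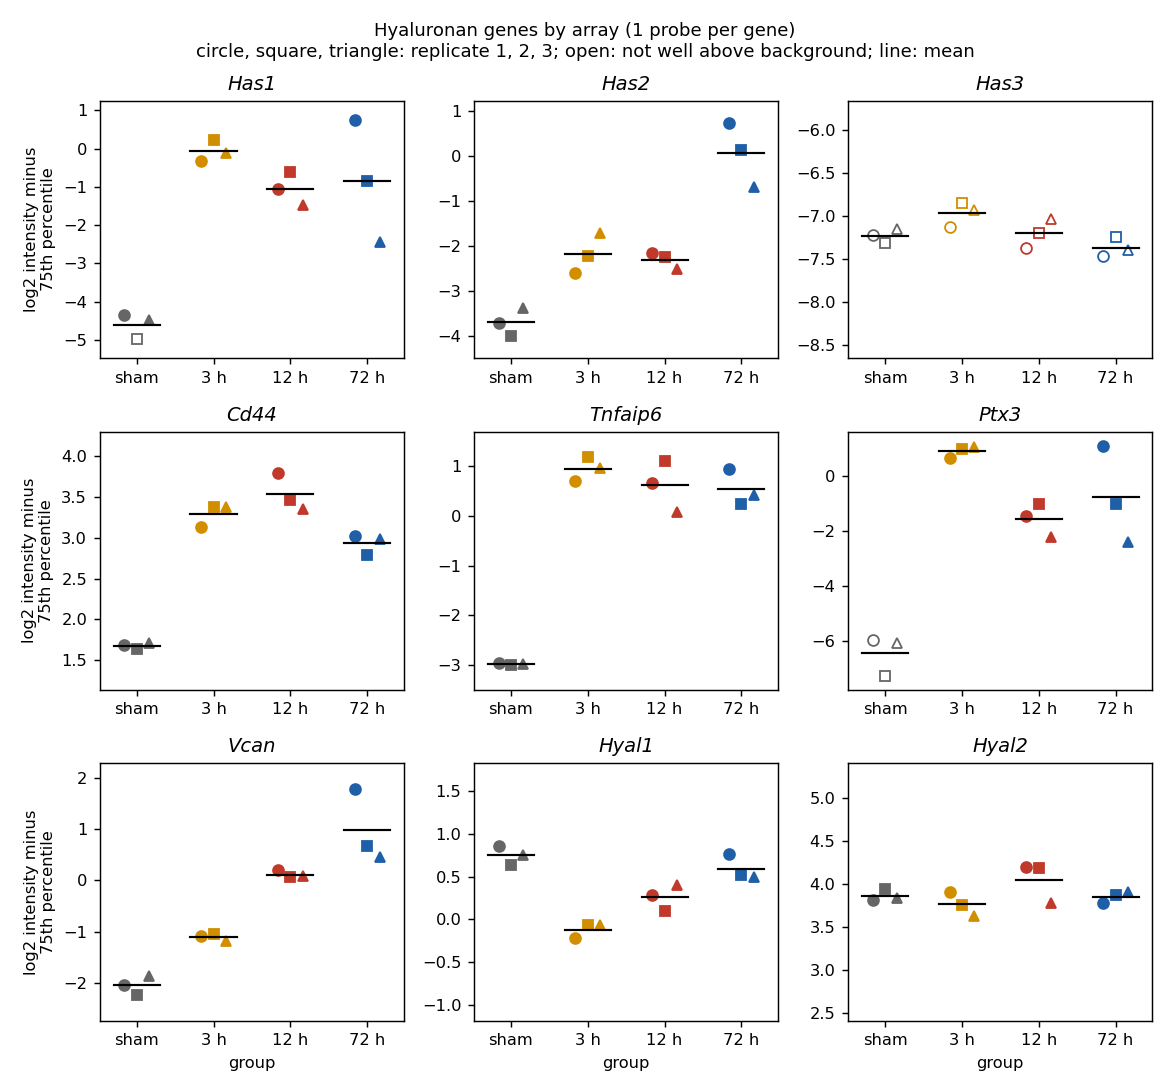
Level of each hyaluronan gene (y axis, log2 intensity relative to that array's 75th percentile, a separate range for each gene) on the 3 arrays of each of the 4 groups (x axis), with group means as lines and open symbols for spots not well above background. Has1, Tnfaip6 and Ptx3 were high on all 3 h arrays, Has2 and Vcan had their highest means at 72 h, and Has3 was open on all 12 arrays.

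The synthase Has1 had levels of -4.35, -4.98 and -4.47 on the sham arrays, and replicate 2 of these was not well above background. At 3 h its levels were -0.32, 0.23 and -0.11. At 12 h they were -1.06, -0.62 and -1.46. At 72 h they were 0.75, -0.84 and -2.45. Every cauterized array was above every sham array, and the 72 h arrays were far more spread than the others. The log2 change from sham was 4.54 (SE 0.63, n = 3 arrays per group, limma adjusted p = 0.00107) at 3 h, 3.56 (SE 0.63, adjusted p = 0.00294) at 12 h and 3.76 (SE 0.63, adjusted p = 0.00274) at 72 h. The steps between time points did not pass the threshold, with -0.98 (adjusted p = 0.349) from 3 h to 12 h and 0.20 (adjusted p = 0.845) from 12 h to 72 h. With slide as a block, the 72 h change was 4.38 and was no longer called (adjusted p = 0.0835), and with normexp background correction the Has1 changes were smaller, at 1.93 (adjusted p = 0.00877), 1.2 (adjusted p = 0.0544, not called) and 1.42 (adjusted p = 0.0108). Without replicate 1 of 72 h, the level at 72 h was lower than at 3 h by the threshold (log2 difference -1.58, adjusted p = 0.0328). A second Has1 probe, designed on another transcript, was not well above background on any array.

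Has2, the synthase that makes long hyaluronan chains and is needed for heart development, had levels of -3.72, -4.00 and -3.38 on the sham arrays, all well above background. Its levels were -2.60, -2.23 and -1.71 at 3 h, and -2.16, -2.25 and -2.51 at 12 h. The 72 h arrays gave 0.73, 0.14 and -0.69. The 3 h and 12 h arrays overlapped each other, lay above sham and lay below all 72 h arrays. The log2 change was 1.52 (SE 0.34, limma adjusted p = 0.0125) at 3 h and 1.4 (SE 0.34, adjusted p = 0.0163) at 12 h. At 72 h it was 3.76 (SE 0.34, adjusted p = 0.0001). Has2 therefore changed in steps, with a rise of 2.37 (SE 0.34, adjusted p = 0.00164) from 12 h to 72 h and 2.24 (SE 0.34, adjusted p = 0.00108) from 3 h to 72 h.

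The early rise of Has2 lost its call under more settings than the late one. With normexp background correction it was 0.54 (adjusted p = 0.106) at 3 h and 0.41 (adjusted p = 0.189) at 12 h, neither called, and 1.91 (adjusted p = 0.000194) at 72 h. The 3 h call of Has2 was also lost without sham replicate 2 (1.37, adjusted p = 0.0507), and the 12 h call without sham replicate 1 (1.39, adjusted p = 0.0512), without sham replicate 2 (1.24, adjusted p = 0.0644) or without 12 h replicate 1 (1.32, adjusted p = 0.0564). With slide as a block, the rise of Has2 from 12 h to 72 h was 2.56 (adjusted p = 0.027), a value that rests on the 1 array of 12 h that shared a slide with the 72 h arrays and takes the spread of that array from the other groups. That from 3 h to 72 h was 2.54 and not called (adjusted p = 0.0696).

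Has3, the remaining synthase, was not well above background on any of the 12 arrays, and its levels ranged from -7.46 to -6.85. No direction was read from these values. The 3 synthases thus gave different records, with Has1 high from 3 h on, Has2 highest at 72 h, and Has3 not detected.

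**Figure D2:**
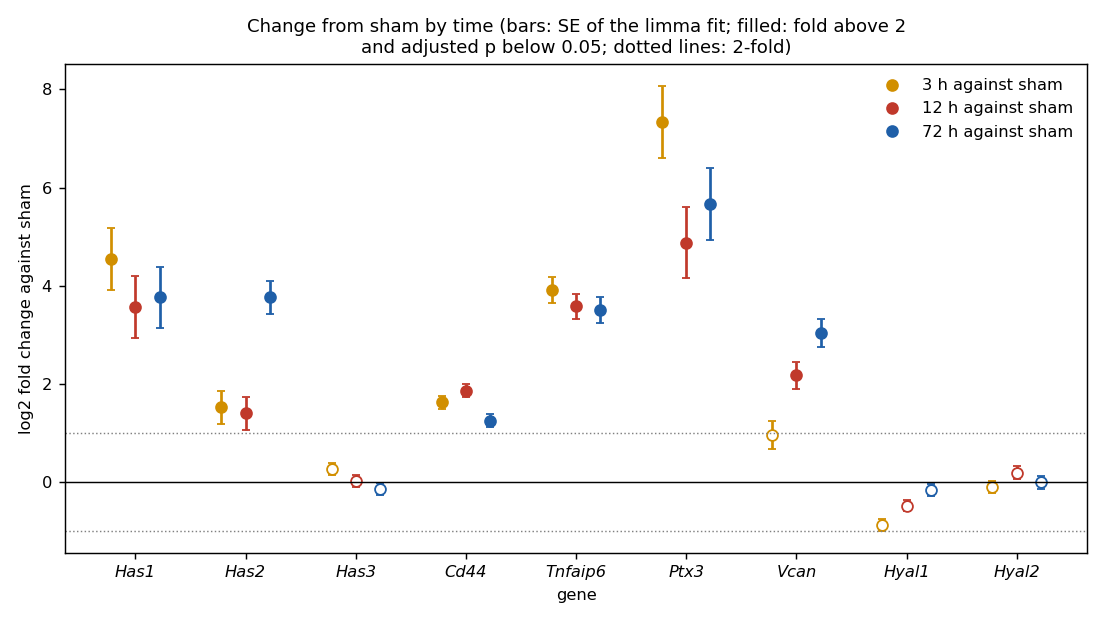
Log2 fold change from sham (y axis) for each of the 9 genes (x axis) at 3, 12 and 72 h, with bars for the SE of the limma fit, filled points for calls and dotted lines at a 2-fold change. The Ptx3 points lie highest at every time, but are set against a sham signal not well above background, the points of Has2 and Vcan are highest at 72 h, and the points of Has3, Hyal1 and Hyal2 are open.

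Tnfaip6 was high at all 3 times after cauterization. Its levels were -2.95, -2.99 and -2.97 on the sham arrays and 0.69, 1.18 and 0.96 at 3 h. They were 0.65, 1.09 and 0.08 at 12 h. At 72 h the levels were 0.94, 0.24 and 0.41. The times after cauterization overlapped, and the lowest of these arrays was still far above sham. The log2 change was 3.91 (SE 0.26, 15-fold, limma adjusted p = 2.18e-05) at 3 h, 3.58 (SE 0.26, 11.9-fold, adjusted p = 2.11e-05) at 12 h and 3.50 (SE 0.26, 11.3-fold, adjusted p = 3.07e-05) at 72 h. No step between times passed the threshold, and with slide as a block the 72 h change was 4.29 (adjusted p = 0.000919). With normexp background correction the changes of Tnfaip6 were smaller and still called, at 2.45 (adjusted p = 5.04e-05), 2.19 (adjusted p = 6.31e-05) and 2.15 (adjusted p = 8.85e-05) in order of time.

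Ptx3 was not well above background on any sham array, where its levels were -5.96, -7.26 and -6.06. At 3 h they were 0.67, 1.0 and 1.06, at 12 h -1.45, -1.02 and -2.19, and at 72 h 1.12, -1.0 and -2.39. Sham therefore gives only an upper bound, taken per array as the higher of the dimmest signal well above background and the measured one. Against it Ptx3 was at least 60.9-fold higher at 3 h, at least 11.1-fold at 12 h and at least 19.2-fold at 72 h. The measured log2 changes were 7.34 (limma adjusted p = 0.0002), 4.88 (adjusted p = 0.00128) and 5.67 (adjusted p = 0.000742), and these p-values do not test the bounds. These bounds hold for the processed intensities without an added offset, and the offset of normexp shrinks changes from so dim a signal. With normexp the log2 changes of Ptx3 were 2.9 (adjusted p = 0.00206), 1.1 (adjusted p = 0.113, not called) and 1.71 (adjusted p = 0.00877), each smaller than the bound. The 12 h arrays lay below the 3 h arrays without overlap, by 2.46 on the log2 scale, which did not pass (adjusted p = 0.0685), whereas the 72 h arrays spanned both.

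The Ptx3 step from 3 h to 12 h depended on the spread of the 72 h arrays. It was -2.46 and called when 72 h replicate 1 (adjusted p = 0.0139) or replicate 3 (adjusted p = 0.0299) was left out. Without 72 h replicate 1, Ptx3 at 72 h was also lower than at 3 h (-2.61, adjusted p = 0.00773), where the fit over all arrays gave -1.67 (adjusted p = 0.098).

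Cd44, the receptor, was well above background on every array. Its levels were 1.69, 1.64 and 1.71 in sham and 3.14, 3.38 and 3.38 at 3 h. They were 3.80, 3.47 and 3.36 at 12 h. At 72 h they were 3.03, 2.79 and 2.99. The 72 h arrays lay between sham and the other times without touching either. The log2 change was 1.62 (SE 0.13, limma adjusted p = 7.62e-05) at 3 h, 1.86 (SE 0.13, adjusted p = 2.24e-05) at 12 h and 1.25 (SE 0.13, adjusted p = 0.000274) at 72 h. From 12 h to 72 h the difference was -0.61 (SE 0.13, adjusted p = 0.0127), which is under 2-fold and so was not called.

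Versican changed later. The Vcan levels were -2.04, -2.25 and -1.88 in sham and -1.08, -1.04 and -1.18 at 3 h. They were 0.20, 0.06 and 0.09 at 12 h. The 72 h arrays gave 1.80, 0.68 and 0.46. No 2 of the 4 groups overlapped, and each later group was higher. The log2 change of Vcan was 0.96 (SE 0.28, limma adjusted p = 0.0405) at 3 h, just under 2-fold, 2.17 (SE 0.28, adjusted p = 0.000557) at 12 h and 3.04 (SE 0.28, adjusted p = 0.000113) at 72 h. From 3 h to 72 h it rose by 2.08 (SE 0.28, adjusted p = 0.000598), and from 3 h to 12 h by 1.22 (SE 0.28, adjusted p = 0.0277). The last of these was lost without any 1 of the 3 h or 12 h arrays, with values of 1.17 to 1.25 and adjusted p of 0.0637 to 0.0855. The difference between 12 h and 72 h was 0.87 (adjusted p = 0.0611), and without 72 h replicate 3 it was 1.13 (adjusted p = 0.0228). With quantile normalization the 3 h change of Vcan was 1.09 and called (adjusted p = 0.0355), and with slide as a block the change from 3 h to 72 h was 2.13 and not called (adjusted p = 0.0696). With normexp the Vcan changes were 1.42 at 12 h and 2.18 at 72 h, both called, and the rise from 3 h to 12 h was 0.84, under 2-fold.

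The hyaluronidase Hyal1 had levels of 0.86, 0.63 and 0.75 in sham, -0.22, -0.07 and -0.07 at 3 h, 0.28, 0.1 and 0.40 at 12 h. At 72 h the levels were 0.76, 0.52 and 0.49. The 3 h and 12 h arrays lay below sham without overlap and the 72 h arrays overlapped it. The log2 difference from sham was -0.87 (SE 0.12, limma adjusted p = 0.00123) at 3 h, -0.48 (SE 0.12, adjusted p = 0.0188) at 12 h and -0.16 (SE 0.12, adjusted p = 0.424) at 72 h, each under 2-fold. Hyal2 ranged from 3.62 to 4.19 over all 12 arrays, and the groups overlapped. Its log2 differences from sham were -0.10 (adjusted p = 0.608), 0.19 (adjusted p = 0.382) and -0.01 (adjusted p = 0.951), each with an SE of 0.13.

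Where a gene had several probes well above background on all 12 arrays, they were set against each other within each array, for 5 pairs of probes in Cd44, Vcan and Hyal1. Each of the 5 differences varied among the 4 groups by an exact permutation test over all 369600 ways to divide 12 arrays into 4 groups of 3, one-sided on the spread of the group means, with adjusted p between 0.000325 and 0.00442. The probes of a gene therefore did not change in parallel.

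In Cd44, the variable exon probe had levels of -2.86, -2.83 and -2.79 in sham, -1.62, -1.5 and -1.48 at 3 h, -1.16, -1.74 and -1.46 at 12 h. At 72 h they were -2.08, -2.34 and -2.49. It rose by 1.29 (SE 0.15, limma adjusted p = 0.000516) at 3 h and 1.37 (SE 0.15, adjusted p = 0.000254) at 12 h, and was 0.52 above sham (SE 0.15, adjusted p = 0.0385) at 72 h. The probe at the end of the coding region rose by 1.5 (SE 0.22, adjusted p = 0.00138), 2.66 (SE 0.22, adjusted p = 4.05e-05) and 1.61 (SE 0.22, adjusted p = 0.000883). The signal at the end of the coding region therefore gained on the variable exon by 0.20 at 3 h, 1.29 at 12 h and 1.09 at 72 h, without overlap between any of these groups and sham (exact permutation, adjusted p = 0.00268 over the 5 pairs). The brightest Cd44 probe, further downstream, gained on the variable exon by 0.33, 0.49 and 0.73 (exact permutation, adjusted p = 0.00249). These 2 probes outside the variable exon also parted from each other. The brightest minus the end-of-coding probe moved by 0.12 at 3 h, -0.8 at 12 h and -0.36 at 72 h (exact permutation, adjusted p = 0.00249). At 12 h and 72 h this difference did not overlap sham.

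The end-of-coding probe of Cd44 also changed between times, by 1.16 (SE 0.22, limma adjusted p = 0.0114) from 3 h to 12 h and by -1.04 (SE 0.22, adjusted p = 0.00922) from 12 h to 72 h. The brightest Cd44 probe gave 0.24 and -0.61 for these steps. The first step of the end-of-coding probe was 0.95, under 2-fold, without 12 h replicate 1. The second was -0.83 without 12 h replicate 1, -0.99 without 72 h replicate 1 and -0.89 without 72 h replicate 2, and -0.84 (adjusted p = 0.172) with slide as a block. With normexp background correction the rises of the variable exon probe, which is dim, were 0.59 and 0.60, under 2-fold.

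In Vcan, the link module probe had levels of -2.09, -2.06 and -1.80 in sham, -1.58, -1.59 and -1.85 at 3 h, -1.1, -0.97 and -1.21 at 12 h. The 72 h arrays gave 0.23, -0.72 and -1.02. Its log2 change was 0.31 (SE 0.27, limma adjusted p = 0.435) at 3 h, 0.89 (SE 0.27, adjusted p = 0.0396) at 12 h and 1.48 (SE 0.27, adjusted p = 0.00406) at 72 h, the last of which alone was called. The brightest Vcan probe gained on it by 0.65, 1.28 and 1.56 (exact permutation, adjusted p = 0.000325). Another Vcan probe, whose 60 bases span 5855 bases of mm9 and so cross an intron, was well above background on 11 arrays and rose by 1.91 (SE 0.43, limma adjusted p = 0.0109) at 12 h and 2.86 (SE 0.43, adjusted p = 0.00165) at 72 h. With slide as a block neither of the further Vcan probes was called at 72 h (adjusted p = 0.118 and 0.128). From 3 h to 72 h the link module probe rose by 1.17 (adjusted p = 0.00875) and the intron-crossing probe by 2.0 (adjusted p = 0.00657), and without 72 h replicate 1 the former was 0.80. Neither of these rises was called with slide as a block, at 1.35 (adjusted p = 0.122) and 1.74 (adjusted p = 0.21), or with normexp, at 0.69 and 0.50. Against sham, normexp left the intron-crossing probe with changes of 0.36 (12 h, adjusted p = 0.158) and 0.73 (72 h), and the link module probe with 0.90 (72 h), each under 2-fold.

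In Hyal1, the second probe had levels of -1.65, -1.61 and -1.57 in sham, -2.49, -2.66 and -2.81 at 3 h, -2.70, -3.05 and -3.11 at 12 h. At 72 h the levels were -1.47, -1.90 and -1.65. It fell by 1.04 (SE 0.15, limma adjusted p = 0.00135) at 3 h and by 1.34 (SE 0.15, adjusted p = 0.000236) at 12 h, and was -0.06 (SE 0.15, adjusted p = 0.792) from sham at 72 h. From 12 h to 72 h it rose by 1.28 (SE 0.15, adjusted p = 0.000604). The 3 h fall was within a small margin of the 2-fold threshold, at -0.91 with quantile normalization and -0.97 without 3 h replicate 3. At 12 h the brightest Hyal1 probe stood 0.86 closer to sham than this one (exact permutation, adjusted p = 0.00442 over the 5 pairs). With normexp no change of the second probe reached 2-fold, at -0.44 at 3 h, -0.64 at 12 h and 0.52 from 12 h to 72 h, beside -0.74 and -0.41 for the brightest probe at 3 h and 12 h. The 2 probes were designed on different transcripts.

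**Figure D3:**
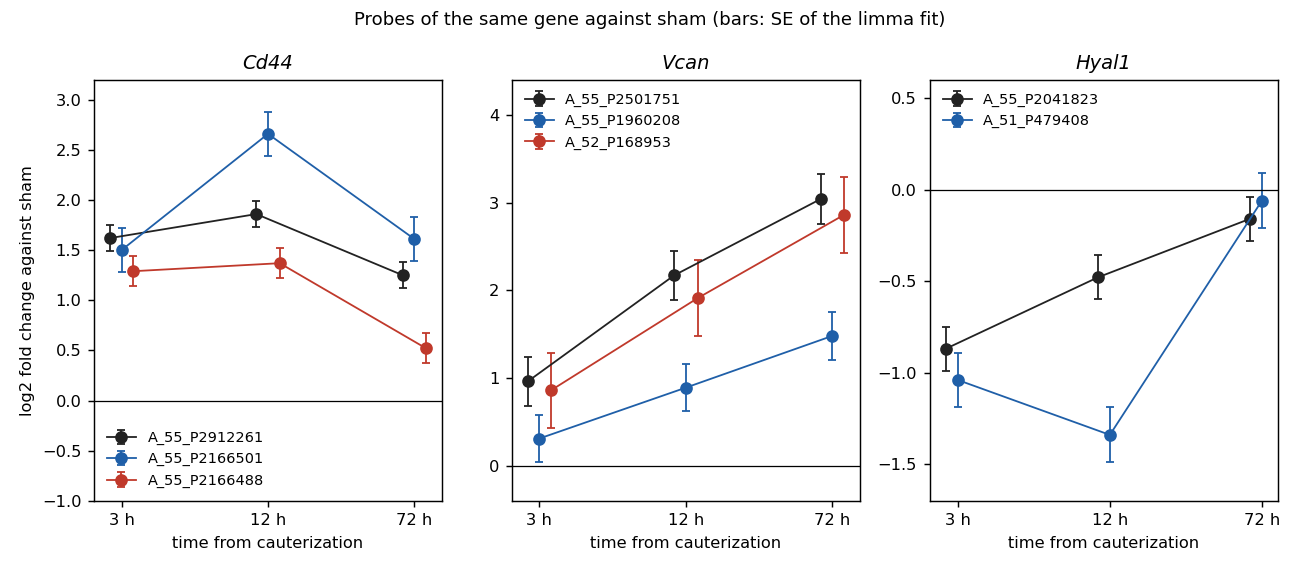
Log2 fold change from sham (y axis) at 3, 12 and 72 h (x axis) for each probe of Cd44, Vcan and Hyal1, with bars for the SE of the limma fit. In Cd44 the red variable exon probe and in Vcan the blue link module probe lie lowest at every time, and in Hyal1 the probes part at 12 h and meet at 72 h.

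Beyond the members, 6 lists held 63 genes tied to hyaluronan or versican. The 3 h arrays gave 9 of them as higher and 1 as lower than sham, the 12 h arrays 11 and 4, and the 72 h arrays 17 and 3. Of all genes, 3.81%, 4.79% and 5.56% were called higher and 4.27%, 5.57% and 4.38% lower. The counts of lower genes are thus near what these shares would give. The median log2 change of each list is given beside that of all genes, which was 0.07, -0.01 and -0.13.

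The 13 genes listed for the making and transport of precursor sugars had medians of 0.33, 0.07 and -0.29. Gfpt2, a rate-limiting amidotransferase of the hexosamine pathway, rose by 2.53 (SE 0.35, limma adjusted p = 0.00107) at 3 h, 1.70 (SE 0.35, adjusted p = 0.00669) at 12 h and 2.72 (SE 0.35, adjusted p = 0.00071) at 72 h. Hk2, a hexokinase, rose by 1.87 at 3 h and 1.83 at 12 h and was -0.29 from sham at 72 h. Ugdh, which makes the UDP-glucuronic acid that the synthases use, was -0.01 from sham at 3 h and fell by 1.43 (SE 0.20, adjusted p = 0.000984) at 12 h and by 1.25 (SE 0.20, adjusted p = 0.00252) at 72 h. Slc35d1, a transporter of nucleotide sugars into the endoplasmic reticulum, fell by 1.23 at 72 h. The precursor genes thus did not move together, with 2 called higher against 1 lower at 12 h, and 1 against 2 at 72 h.

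Of 11 hyaluronan receptors and their partners, 2 rose at 3 h, 5 at 12 h and 5 at 72 h, and none of the 11 fell by this rule at any of these times. The medians were 0.22, 0.19 and 0.93. Layilin (Layn), a hyaluronan receptor, rose by 1.01 at 3 h (adjusted p = 0.00787), 1.07 at 12 h and 1.72 at 72 h (adjusted p = 0.000513). Spp1, osteopontin, a ligand of Cd44, was 1.98 above sham at 3 h (adjusted p = 0.0865) and rose by 3.30 at 12 h (adjusted p = 0.00926) and 4.41 at 72 h (adjusted p = 0.00251). Msn, moesin, which ties Cd44 to actin, rose by 1.58 at 12 h and 1.54 at 72 h. Tlr2, an innate immune receptor also described to sense hyaluronan fragments, rose by 1.69 at 12 h. Stab1, a scavenger receptor of macrophages and sinusoidal endothelium, was -0.82 from sham at 3 h (adjusted p = 0.0257) and rose by 1.59 at 72 h (adjusted p = 0.001). Ezr rose at 3 h and Tlr4 at 12 h and 72 h.

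Of the 9 genes in the list of link proteins, hyalectans and genes named for hyaluronan binding, 0 were called higher than sham at 3, 12 or 72 h, beside 3.81% to 5.56% of all genes. Acan and Habp2 were not well above background on any array and Hapln4 was so on 1, so that nothing can be read from these. Ncan fell at 3 h and Hapln1 at 72 h, both to signals not well above background, so the falls are at least 1.7-fold and at least 1.24-fold. Tnfaip6 transfers the heavy chains of inter-alpha-inhibitor. Of the 6 genes listed for this family, Itih5 fell by 1.4 at 12 h (SE 0.16, limma adjusted p = 0.000244) and Itih3 rose by 1.27 at 72 h (SE 0.25, adjusted p = 0.00649). Of 10 further genes for hyaluronan breakdown, Cemip, a hyaluronan-binding protein needed for its depolymerization, rose by 2.68 (SE 0.29, adjusted p = 0.000318) at 3 h and 2.95 (SE 0.29, adjusted p = 0.00013) at 12 h and was 0.76 above sham at 72 h (adjusted p = 0.101). Gusb, a lysosomal glucuronidase, rose by 1.0 at 72 h (adjusted p = 0.000618). The hyaluronidase family genes Hyal3, Hyal4, Hyal5, Hyal6 and Spam1 were not well above background in sham or at any time.

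The 14 genes for versican cleavage, versican partners and chondroitin sulfate synthesis had medians of 0.39, 0.37 and 1.49. At 3 h 4 of them rose, all proteases. Adamts4, which cleaves versican, rose by 5.09 (SE 0.37, limma adjusted p = 3.26e-05) at 3 h, 4.08 (SE 0.37, adjusted p = 7.26e-05) at 12 h and 3.68 (SE 0.37, adjusted p = 0.000171) at 72 h. Adamts1 rose by 2.86, 1.64 and 2.21, and Adamts9 by 2.32, 1.02 and 2.04. Adamts15 rose by 1.70 at 3 h and 2.39 at 72 h and was -0.18 from sham at 12 h. At 72 h 9 of the 14 rose, among them Fbln2, fibulin-2, which binds versican, by 2.26 (SE 0.29, adjusted p = 0.000687) after a fall by 1.09 at 12 h (adjusted p = 0.0225). Among these 9, Chsy3 was not well above background in any sham or 72 h array and Adamts20 not in sham.

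**Figure D4:**
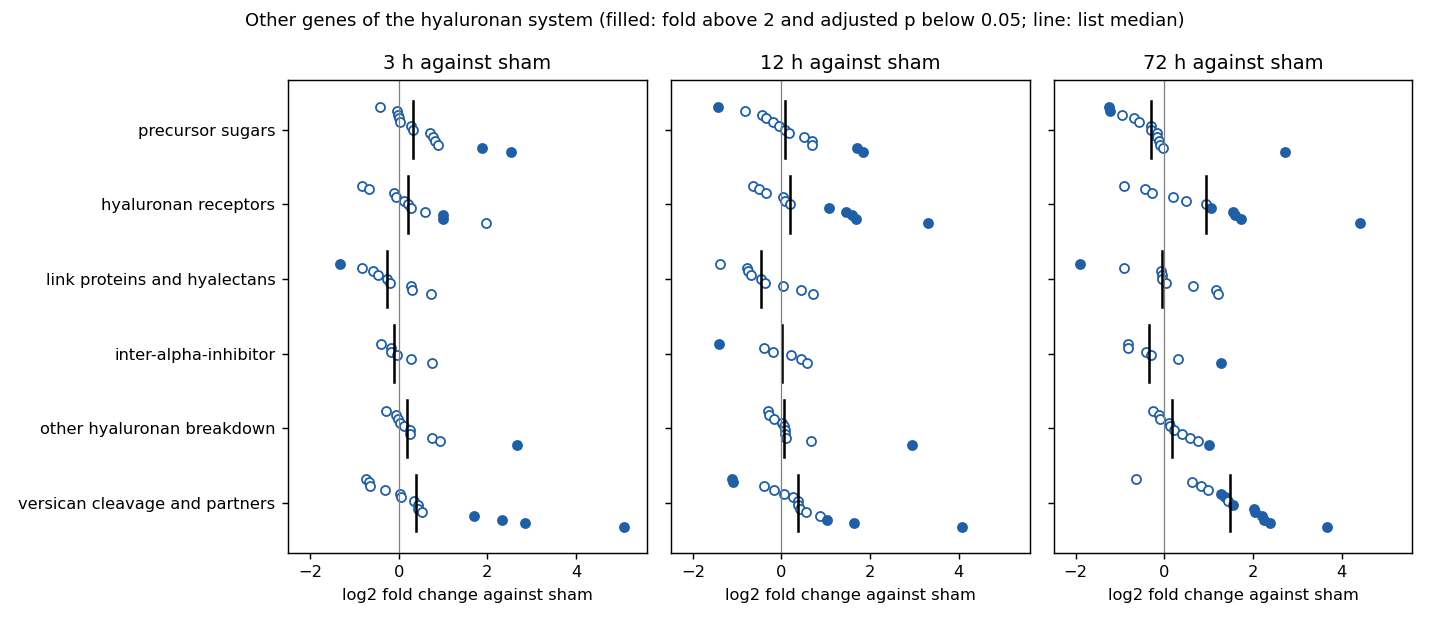
Log2 fold change from sham (x axis) of the 63 further genes, by list (y axis), at 3, 12 and 72 h, with filled points for calls and lines at the list medians. Only the list of versican cleavage and partners had its median above a 2-fold change, at 72 h, and the rightmost point at 3 h is Adamts4.

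Several members had genes elsewhere on the array with almost the same record. Over the 12 arrays, which share their groups and slides, the highest Pearson correlation of Tnfaip6 was with Il6 (0.995), followed by Selp (0.988) and Cxcl1 (0.985). Has1 was most like Ptx3 (0.986), Sele (0.985) and Cyr61 (0.969), and Ptx3 was most like Has1, Adamts1 (0.980) and Sele (0.974). Cd44 was most like Csf3 (0.994), Nr4a1 (0.991) and Dusp1 (0.987). Has2 was most like Chsy1 (0.977), a chondroitin sulfate synthase, then Apcdd1 (0.972) and Dab2 (0.968), and Vcan was most like Ckap4 (0.980), Emb (0.976) and Galnt2 (0.975). Hyal1 was nearest to Kantr (0.975), Mypop (0.968) and 5330421C15Rik (0.966), and Hyal2 to Tbc1d8b (0.902), Nhej1 (0.894) and Smarcd2 (0.883). The nearest genes of Has3, itself not above background, were AF067063 (0.927), Hk1 (0.919) and Cnnm3 (0.916). Each was picked as the highest of all genes, so these values describe the arrays and carry no test.

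Marker genes of several cell types also differed between the groups, in both directions. Of 11 neutrophil markers, 8 rose at 3 h, 10 at 12 h and 9 at 72 h, and their summed level, in units of each array's 75th percentile, ranged from 81.4 to 92.6 in sham, 366 to 613 at 3 h, 856 to 914 at 12 h and 368 to 753 at 72 h. Of 10 macrophage markers, 1, 3 and 10 rose, and the sum ranged from 117 to 140 in sham and 390 to 412 at 72 h. Of 10 fibroblast markers none was called at 3 h, 5 fell at 12 h and 7 rose at 72 h, with sums of 166 to 181 in sham, 112 to 136 at 3 h, 97.2 to 105 at 12 h and 430 to 969 at 72 h. Of 10 mesothelial markers, 3 fell and 1 rose at both 3 h and 12 h. At 72 h 3 rose, namely Wt1 by 4.4, Pdpn by 2.58 and Upk1b by 1.78. The mesothelial sums were 223 to 271 in sham, 341 to 382 at 3 h, 232 to 296 at 12 h and 165 to 224 at 72 h. These sums are mostly the signal of the Krt19 probe, so they do not follow the other markers and give no direction for the mesothelium. Upk3b and Lrrn4 were the mesothelial markers not well above background on any 3 h or 12 h array, while both were so on all sham and 72 h arrays. Of the others, Gpm6a was called lower at 3 h (log2 difference -1.54, limma adjusted p = 0.00749) and at 12 h. Pdpn rose by 1.73 at 3 h. Msln was -2.06 (SE 1.4) and Cav1 -0.71 from sham at 3 h, neither called. Wt1, Upk1b, Krt7 and Krt19 were 0.02, 0.60, 0.51 and 0.48 from sham at that time, also not called. Smooth muscle markers fell in 2, 10 and 7 of 10. Endothelial markers rose in 4 of 8 at 72 h. No marker of 7 for T cells or 6 for B cells was called at any time, beside 3.81% to 5.56% of all genes called higher and 4.27% to 5.57% lower. So few markers do not show that these cells were unchanged. The B cell markers had median log2 changes of -1.6, -0.14 and -1.24 in order of time, with sums of 1.23 to 22.3 at 3 h. The T cell medians were -0.17, 0.23 and -0.41, and Trac was not well above background on any array. Epithelial markers rose in 1 of 10 at 3 h and fell in 2 at 72 h, and 1 of 8 fat cell markers fell at 3 h. The part of these shifts in the members' changes was not tested.

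**Figure D5:**
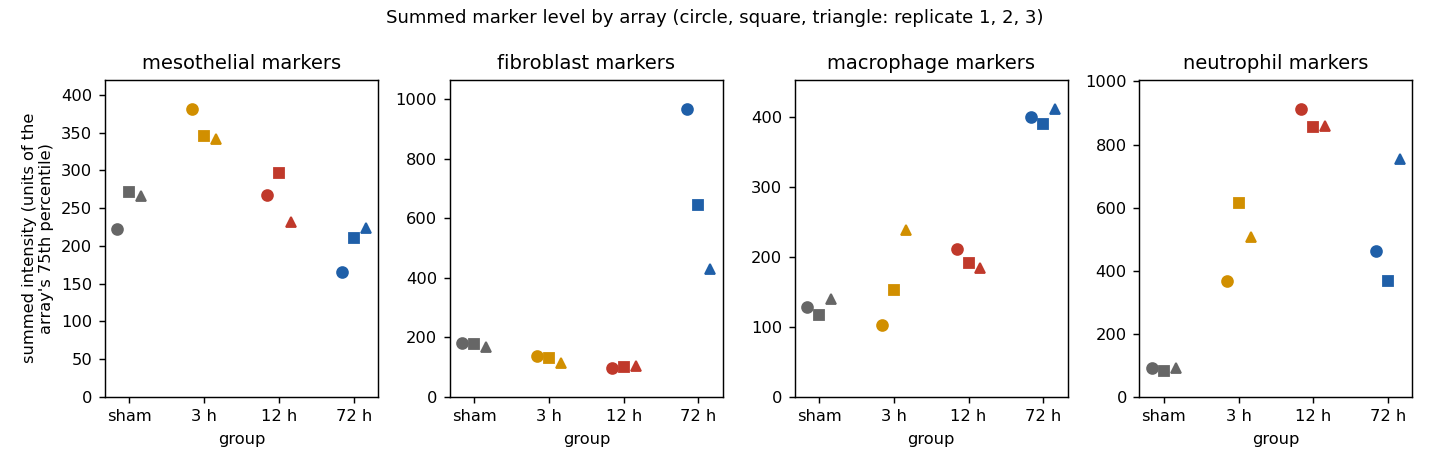
Summed intensity of the markers of 4 cell types (y axis, units of the array's 75th percentile, starting at 0) on each array of the 4 groups (x axis). The fibroblast sum falls to 97.2 to 105 at 12 h and reaches 430 to 969 at 72 h, with replicate 1 highest, while the macrophage sum is nearly equal on the 3 arrays of 72 h. The mesothelial sum is mostly the signal of the Krt19 probe.

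The 72 h arrays stood in a fixed order for several of these genes. Of the 8 members well above background on all 3 of them, replicate 1 was the highest in 7, where replicate 1 was the highest in 1 of 8 at 3 h and 4 of 8 at 12 h. The share of all genes with replicate 1 highest is not given here, so this is not read as particular to the members. For Has1, Has2, Ptx3, Vcan and Hyal1, replicate 1 was highest and replicate 3 lowest. The summed fibroblast markers stood in that order too, at 969, 644 and 430, as did the fat cell markers at 170, 73.5 and 21.2 and the endothelial markers at 27.8, 17.5 and 11.7. Epithelial markers ran the other way, at 929, 1240 and 1290, and smooth muscle markers at 204, 244 and 270. The macrophage markers were at 400, 390 and 412. Without replicate 1, all 6 members that rose at 72 h were still called.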

How the data were processed

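The authors deposited the scanner output of 12 1-colour arrays (SurePrint G3 Mouse GE v2), made with Agilent Feature Extraction 11.5.1.1, which gives a background-corrected intensity for each spot, not normalized between arrays. A table of log2 values was deposited as well. Per the methods it was scaled in GeneSpring GX 14.9 to the 75th percentile, and its rows have a median of 0, which makes it equal to the values used here after row centring (r = 1.0). The scanner output gives probe positions on mm9. The members and gene lists were chosen with earlier results of these data known.

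Here the log2 processed intensity minus each array's 75th percentile was computed over non-control spots without outlier spots (53 to 152 per array). Spots of 1 probe were averaged. Group means were fitted in R 4.3.3 by lmFit, contrasts.fit and eBayes of limma 3.58.1, adjusted by Benjamini-Hochberg over 56605 probes. Calls needed a fold above 2 and an adjusted p below 0.05. The probe of highest mean stood for its gene. Tables were made in Python 3.11.15 with pandas 2.3.3, numpy 2.4.6 and matplotlib 3.10.9, and version 1.17.8 of data.table read them in R. Named genes were every member, up to 5 of each further list with the largest change among those called, and for each member the 3 genes of highest correlation among genes well above background on at least 6 arrays. Outside this rule, Ezr, Tlr4, Chsy3, Adamts20 and the hyaluronidases at background were named after their values were seen.

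Data were simulated over 56507 probes from the sham means and the spread within groups of all 12 arrays, with changes put into the 3 h arrays. A log2 change of 1.5 was recovered in 88.1% of the altered probes, a change of 2.5 in 95.5% and a change of 4 in 98.5%, and 7 unaltered probes were called. The altered probes were all well above background on the 12 arrays, which the brightest probes of Has1, Has3 and Ptx3 were not, so the recovery does not cover these. The number of arrays limits the precision. Other settings numbered 25, with 12 that left out 1 array each, and 2 within-slide comparisons were added after the data were seen. Replicate numbers did not pair arrays, since same-numbered arrays deviated together with correlations of -0.16 to 0.09 and arrays of other numbers with -0.11 to 0.14. Replicate arrays of a group correlated at 0.985 to 0.992 across probes.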

Additional observations from a re-analysis of the deposited data

Results flagged for a closer look

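Between times after cauterization, 9 differences of the 16 hyaluronan gene probes passed the threshold by limma's test of the difference itself. Several of them are probes of 1 gene and so are not separate results. Of all 27248 genes, 1107 were called for 12 h against 3 h, 2419 for 72 h against 12 h and 3679 for 72 h against 3 h. Has2 was higher at 72 h than at 12 h by 2.37 on the log2 scale and than at 3 h by 2.24. The brightest Vcan probe was higher at 12 h than at 3 h by 1.22 and at 72 h than at 3 h by 2.08. From 3 h to 72 h, the link module probe of Vcan rose by 1.17 and the probe that crosses an intron by 2.0. The end-of-coding probe of Cd44 rose by 1.16 from 3 h to 12 h and differed by -1.04 from 12 h to 72 h. The second Hyal1 probe rose by 1.28 from 12 h to 72 h. With slide as a block 3 of these remained called, namely Has2 from 12 h to 72 h (2.56), the Cd44 probe from 3 h to 12 h (1.26) and Hyal1 (1.44). The Vcan rises from 3 h to 72 h, the Vcan rise to 12 h, the Has2 rise from 3 h to 72 h and the later Cd44 step were not. Groups of 3 arrays were not screened for single deviating arrays.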

How the results depend on the processing

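Every member probe kept its direction where it was called, in each of the 27 alternatives in which it could be fitted. Of 2298 values under alternatives, 2198 kept the side of the threshold, 85 lost a call and 15 gained one. With the replicate block, 5, 6 and 6 members were called higher in order of time, as without it, and no call of a brightest probe changed, nor did any between times. The study's methods name no test for the arrays. Their general statistics give Dunnett's test for comparisons among several groups, which was not run here, and a paired t-test for a pair of groups. Paired here by replicate number, this t-test called 0 members in any comparison after Benjamini-Hochberg adjustment, with a smallest adjusted p of 0.0575. It also called 0 of 27238, 27217 and 27242 genes at 3, 12 and 72 h and 1 gene of all between times, so its count says nothing particular about the members. At an unadjusted p below 0.05 this test called 5, 6 and 5 members higher at 3, 12 and 72 h. The share of all genes at that cutoff is not given here, so nothing particular about the members can be read from these counts. With normexp background correction 3 members were called higher at 12 h, against 6. With no fold threshold, 1 member (Hyal1) was lower at 3 h and 1 at 12 h, 1 (Cd44) was lower at 72 h than at 12 h and 1 (Has3, at background) at 72 h than at 3 h. For these counts too, the share of all genes is not given.

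Between 3 h and 12 h, the 1 member called higher (Vcan) became 0 with normexp, with slide as a block, with the probes of a gene averaged and within the first slide, and 1 member (Ptx3) was called lower with normexp, the filter on dim probes, eBayes with trend and robust, or only the arrays compared. Between 3 h and 72 h, the 2 called higher became 0 with slide as a block, and 1 (Ptx3) was lower with normexp. Leaving out each array in turn gave 4 to 5 members higher at 3 h, 5 to 6 at 12 h and 6 at 72 h, 0 to 1 higher and 0 to 1 lower from 3 h to 12 h, 1 to 2 higher from 12 h to 72 h, and 0 to 2 lower from 3 h to 72 h. Over all genes, calls at 3, 12 and 72 h were 2202, 2824 and 2708 against 766, 1233 and 1188 with normexp, and 941 at 72 h with slide as a block. Between times, 1107 (12 h against 3 h), 2419 (72 h against 12 h) and 3679 (72 h against 3 h) became 541, 1012 and 1500 with normexp, and 1072 and 998 for the last 2 with slide as a block. The cause of these changes was not tested. Ptx3 in sham and Has3 on all arrays were not well above background, nor was Has1 on 1 sham array.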
